A study of Mus musculus with 12 samples.

Results

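The genes described here are 10 genes of serine, glycine and ATF4 metabolism, followed through the muscle stem cells (satellite cells, SCs) of control and FoxM1-deleted mice. They are Psat1, Phgdh, Psph, Shmt2, Mthfd2, Pck2, Gldc, Asns, Atf4 and Atf5, 10 of the 13775 genes in the deposited table. The set was chosen by the measured FPKM of Psat1, Pck2 and Gldc, which differed between injured FoxM1-cKO and injured FoxM1fl/fl SCs. For that comparison their values are therefore given as a description without a test.

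SCs were sorted from 2-month-old mice of 2 genotypes. FoxM1fl/fl mice carry FoxM1 alleles flanked by loxP sites and served as controls, and FoxM1-cKO mice carry the same floxed alleles together with Pax7Cre/+, a Cre allele that acts wherever Pax7 is or has been expressed, in the SC lineage. Muscles were left uninjured, or injured with 50 µl of 1.2% BaCl2 and taken at 48 h post-injury. There were 4 groups of 3 libraries, each made from about 800 sorted cells (CD34+ and α7-integrin+, negative for CD45, Sca1, CD11b and CD31) with a low-input cDNA kit. Levels are given in FPKM, fragments scaled by transcript length and by the size of the library. The sources do not say which mouse gave which library, and p-values then measure only the spread among these libraries.

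Serine is made from the glycolytic intermediate 3-phosphoglycerate in consecutive steps by PHGDH, PSAT1 and PSPH. In mitochondria SHMT2 splits serine into glycine and a one-carbon unit carried on folate, and MTHFD2 oxidizes that unit further for nucleotide synthesis, while GLDC, a subunit of the glycine cleavage system, takes glycine apart. ATF4 is the transcription factor of the integrated stress response. It is translated when the initiation factor eIF2 is phosphorylated, and it is known to induce many genes of amino acid supply, among them those of serine synthesis and ASNS, the asparagine synthetase. Much of the control of ATF4 is thus at translation, which RNA levels do not measure.

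The libraries differed in depth, and the members must be read against that. By the size of the FPKM steps, depth was between 170698 and 642031 reads in the uninjured libraries, between 907564 and 1284067 in injured FoxM1fl/fl SCs and between 1693022 and 2854538 in injured FoxM1-cKO SCs. Between 1178 and 3423 genes were above 0 in an uninjured library, and between 4462 and 7577 in an injured one. In 3 libraries (FoxM1fl/fl uninjured 1, FoxM1-cKO uninjured 2 and FoxM1fl/fl injured 1) the values followed a weighted sum of the other 2 libraries of their group. For this, only genes well above 0 FPKM in 1 of the other 2 libraries and at 0 in the second were compared. FoxM1fl/fl injured 1, for example, held all 436 such genes of FoxM1fl/fl injured 2 and 99.37% of the 319 of FoxM1fl/fl injured 3. Their median levels were 0.68 and 0.32 times those in the source library. Whether these 3 libraries are separate samples cannot be told from the files, and results were also computed without them. Of the sorting markers, Itga7 (α7-integrin) was above 0 in only 2 of the 12 libraries, FoxM1-cKO injured 1 and 3, and Cd34 was above 0 in 1 of the 6 uninjured libraries. Ptprc, the gene of CD45, which the sort selected against, held 224 and 248 FPKM in FoxM1fl/fl uninjured 1 and 2, and Fcer1g, another leukocyte gene, 1287 and 1364 FPKM. Of the 10 macrophage markers in the table, only these 2 were above 0 in FoxM1fl/fl uninjured 1 and 2. Both were at 0 in the other 4 uninjured libraries, and their part in the results was not tested. Ly6a, the gene of Sca1, which the sort also selected against, held 11.4, 14.7 and 1.15 FPKM in injured FoxM1fl/fl libraries. Injured FoxM1-cKO libraries held 0, 0 and 4.57 FPKM of it, and its part was not tested either. Of 13 SC markers in the table, 1 to 3 were above 0 in an uninjured library and 5 to 9 in an injured one. The summed myofibre markers took 1.462% to 6.457% of the FPKM of uninjured FoxM1fl/fl libraries and 14.111% to 26.247% of uninjured FoxM1-cKO libraries. FoxM1 itself was listed at 5.48 to 8.95 FPKM in uninjured and 29.4 to 42.0 FPKM in injured FoxM1fl/fl SCs, and in FoxM1-cKO SCs at 0 uninjured and 0.832 to 3.48 FPKM injured. At best 3 of these 9 values above 0 were whole numbers of reads at an annotated transcript length, while in 96.88% of 1505 other genes with at least 5 values above 0 and at most 100 reads every value was whole. The FoxM1 row was therefore not taken as a check of the labels.

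The promoters of 4 members hold the letters of an ATF4 or FoxM1 element and are shown for that reason. The 250 bases before the RefSeq start (GRCm38.p6, the assembly also called mm10) were searched on both strands for the core of the ATF4 element, TGATGNAA, and for the FoxM1 element in the forms CAAACAA or CAAATAA, and likewise TAAACAA or TAAATAA. All 10 members were in the promoter table, with 12 promoters. RefSeq starts can differ from the GENCODE bounds given below for each gene. The windows of Mthfd2, of Psat1 and of a promoter of Atf5 lie inside those bounds. The ATF4 core was found for Asns and Pck2. Of all 32851 promoters, 3.45% hold it. The FoxM1 element was found for Mthfd2 and Shmt2. It is held by 15.5% of all promoters. Matches are in capitals, 5′ to 3′ on the strand of the gene.
Asns, minus strand, chr6:7693210-7693262, ATF4 core on the gene's own strand at 23 to 16 bases before the start: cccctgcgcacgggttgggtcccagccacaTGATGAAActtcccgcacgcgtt
Pck2, plus strand, chr14:55540133-55540200, ATF4 core on the opposite strand at 103 to 96 bases before the start: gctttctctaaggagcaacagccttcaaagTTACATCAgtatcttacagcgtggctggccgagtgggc
Mthfd2, minus strand, chr6:83317758-83317824, FoxM1 element on the opposite strand at 190 to 184 bases before the start: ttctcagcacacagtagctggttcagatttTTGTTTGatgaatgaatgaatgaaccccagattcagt
Shmt2, minus strand, chr10:127522633-127522694, 4 overlapping FoxM1 elements between 237 and 219 bases before the start: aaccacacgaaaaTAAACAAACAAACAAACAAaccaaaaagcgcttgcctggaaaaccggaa
In the windows of Psat1, Phgdh, Psph, Gldc, Atf4 and Atf5 neither set of letters occurred. A match in such a window is a description of the letters and not evidence of binding.

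In uninjured SCs the members were nearly silent in the table. Of the 30 values in uninjured FoxM1fl/fl SCs, 2 were above 0, both of Pck2. Of the 30 values in uninjured FoxM1-cKO SCs, 4 were above 0, of Shmt2 and Atf4. At 48 h post-injury 21 of 30 values were above 0 in FoxM1fl/fl SCs and 26 of 30 in FoxM1-cKO SCs. All 10 members were above 0 in at least 1 library of injured FoxM1-cKO SCs. For 9 members every value was a whole number of reads at 1 transcript length (largest distance 0.0448 reads). The number of reads was not derived for Shmt2.

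**Figure D1:**
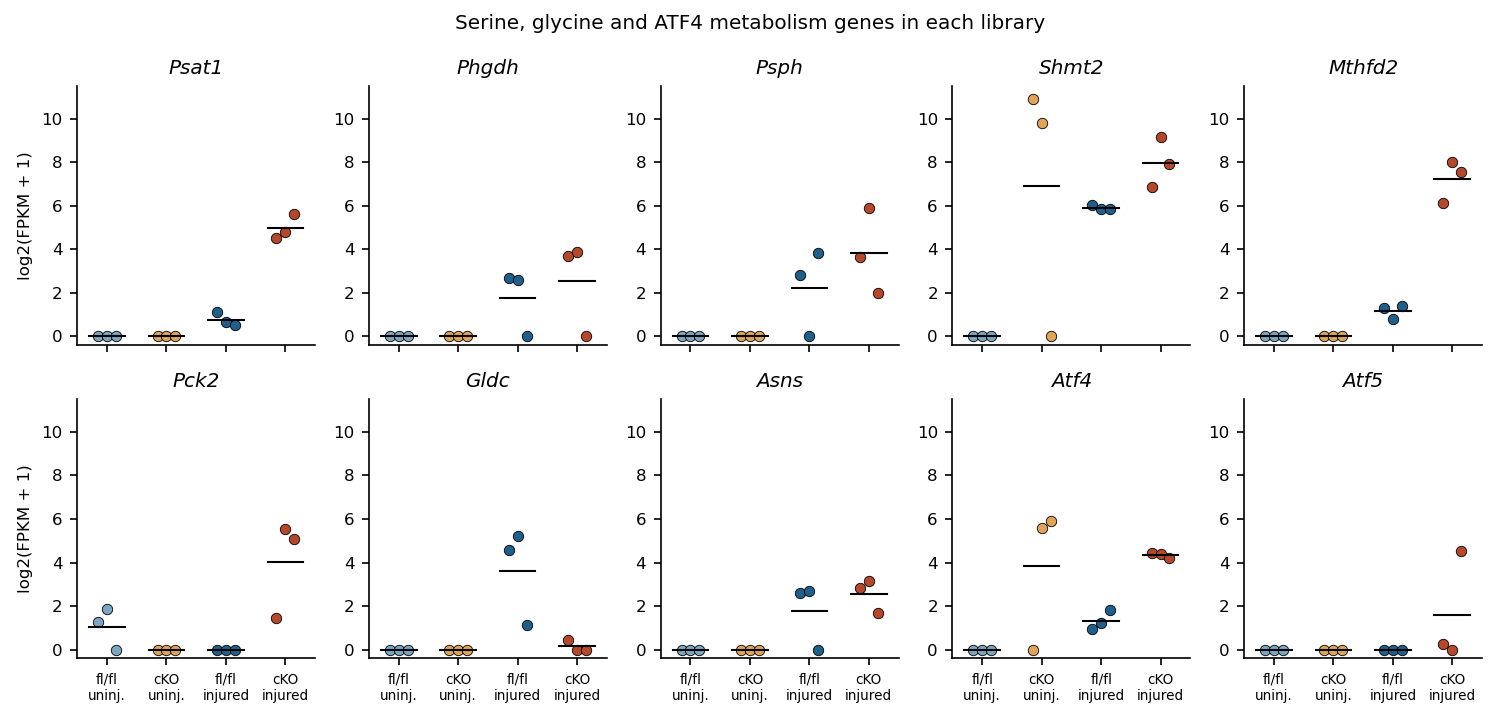
Level of each of the 10 genes on the log2(FPKM + 1) scale (y axis) in the 12 libraries, 3 in each of 4 groups (x axis); points are libraries and lines are group means. Psat1, Shmt2, Mthfd2, Pck2 and Atf4 are higher in all 3 injured FoxM1-cKO libraries than in all 3 injured FoxM1fl/fl libraries, Gldc is lower, and most values in uninjured SCs are 0.

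Psat1, the phosphoserine aminotransferase of serine synthesis (chromosome 19, 15904678 to 15947337), was at 0 in all 6 uninjured libraries. In injured FoxM1fl/fl SCs it stood at 1.19, 0.595 and 0.421 FPKM, which are 4, 2 and 1 reads. In injured FoxM1-cKO SCs it stood at 21.8, 26.4 and 47.4 FPKM, from 163, 117 and 256 reads. The groups did not overlap, and the mean was 43.3 times higher in FoxM1-cKO SCs (31.9 ± 13.7 against 0.736 ± 0.405 FPKM, SD, n = 3 each). On the log2(FPKM + 1) scale the difference was 4.19 (SE 0.74). The control level rests on very few reads, so the size of the ratio is imprecise. In bulk libraries such as these, fewer cells of a type and less RNA per cell cannot be told apart.

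The enzymes before and after PSAT1 did not show that separation. Phgdh, the dehydrogenase that opens the pathway (chromosome 3, 98313170 to 98339990), stood at 5.36, 4.94 and 0 FPKM in the 3 injured control libraries. The 3 injured FoxM1-cKO libraries held 12.03, 13.7 and 0 FPKM. The 0 in each group came from its library 3. Psph, the phosphatase of the last step (chromosome 5, 129765558 to 129787449), held 5.97, 0 and 13.4 FPKM in injured FoxM1fl/fl libraries. In injured FoxM1-cKO SCs it stood at 11.3, 58.7 and 3.03 FPKM. The groups overlapped for both genes, with log2 differences of 0.78 (SE 1.03) for Phgdh and 1.63 (SE 1.15) for Psph. Both were at 0 in all uninjured libraries.

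Among the mitochondrial folate enzymes, Mthfd2 had the largest ratio of those above 0 in every injured library. Mthfd2 (chromosome 6, 83305691 to 83325908), the methylenetetrahydrofolate dehydrogenase and cyclohydrolase of mitochondria, was at 0 in all 6 uninjured libraries. In injured FoxM1fl/fl SCs it stood at 1.497, 0.747 and 1.59 FPKM, from 4, 2 and 3 reads. The injured FoxM1-cKO libraries reached 67.9, 260.3 and 183.5 FPKM, from 404, 919 and 789 reads. The mean was 134 times higher in FoxM1-cKO SCs (171 ± 96.9 against 1.28 ± 0.461 FPKM, SD, n = 3 each), a log2 difference of 6.06 (SE 0.87). The lowest FoxM1-cKO library lay far above the highest FoxM1fl/fl library.

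Shmt2 (chromosome 10, 127517123 to 127522444) was the most highly expressed member in injured SCs of both genotypes. In injured FoxM1fl/fl SCs it stood at 63.7, 56.1 and 56.8 FPKM, and in injured FoxM1-cKO SCs at 114, 566 and 241 FPKM. These groups did not overlap, with means 5.22 times apart and a log2 difference of 2.07 (SE 2.17). The SE is as large as the difference because the spread is shared with the uninjured libraries. There, no control library held Shmt2, and the FoxM1-cKO libraries held 1907, 905 and 0 FPKM. FoxM1-cKO uninjured 1 and 2 thus had a higher Shmt2 level than any injured library, while FoxM1-cKO uninjured 3 held none. The weighted sum of the other 2 libraries of the group gives 837 FPKM for FoxM1-cKO uninjured 2.

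Gldc differed in the opposite direction. Gldc (chromosome 19, 30098447 to 30175429), the decarboxylase of glycine cleavage, held 22.7, 36.1 and 1.17 FPKM in injured FoxM1fl/fl libraries, from 109, 174 and 4 reads. The injured FoxM1-cKO libraries held 0.373, 0 and 0 FPKM, from 4, 0 and 0 reads. The groups did not overlap, with a log2 difference of -3.48 (SE 0.88). Between FoxM1fl/fl injured 3 and FoxM1-cKO injured 1 both counts were 4 reads, and they differ in FPKM through the depth of the libraries. The weighted sum of the other 2 libraries gives 24.8 FPKM for FoxM1fl/fl injured 1, and without that library the group holds 36.1 and 1.17 FPKM. For members at few reads the sum lay further from the value, at 0.538 FPKM for Psat1 (1.19 FPKM measured) and 1.74 FPKM for Atf4 (0.905 FPKM measured) in that library. Gldc was at 0 in all 6 uninjured libraries.

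Pck2 (chromosome 14, 55540266 to 55551242), the mitochondrial enzyme that makes phosphoenolpyruvate from oxaloacetate, was at 0 in all 3 injured FoxM1fl/fl libraries. The injured FoxM1-cKO libraries held 1.74, 45.0 and 32.7 FPKM, from 23, 352 and 312 reads, so 1 library was much lower than the other 2. It was the only member above 0 in uninjured FoxM1fl/fl SCs, at 1.44, 2.69 and 0 FPKM from 4, 8 and 0 reads, where the weighted sum gives 2.38 FPKM for the first. In uninjured FoxM1-cKO SCs it was at 0 in all 3 libraries.

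Atf4 (chromosome 15, 80255184 to 80257541) held 0.905, 1.36 and 2.56 FPKM in injured FoxM1fl/fl libraries, from 2, 3 and 4 reads. In injured FoxM1-cKO SCs it stood at 20.5, 19.9 and 17.4 FPKM, from 101, 58 and 62 reads, the narrowest spread relative to its mean of any member in that group (19.3 ± 1.62 FPKM, SD, n = 3). The mean in FoxM1fl/fl SCs was 1.61 ± 0.854 FPKM (SD, n = 3), and the log2 difference was 3.01 (SE 1.35). The uninjured FoxM1-cKO libraries held 0, 47.0 and 58.4 FPKM, from 0, 14 and 24 reads, and the uninjured control libraries held none. The weighted sum gives 30.7 FPKM for FoxM1-cKO uninjured 2. The library without Atf4 (FoxM1-cKO uninjured 1) held the most Shmt2, and that without Shmt2 (FoxM1-cKO uninjured 3) held the most Atf4.

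Atf5 and Asns, known from other work as targets of ATF4, did not separate the groups. Atf5 (chromosome 7, 44812256 to 44816658), a related transcription factor of the mitochondrial stress response, was above 0 in only 2 libraries, at 0.193 FPKM in FoxM1-cKO injured 1 and 22.2 FPKM in FoxM1-cKO injured 3. It did not pass the filter on low values. Asns (chromosome 6, 7675169 to 7693254), which makes asparagine and whose promoter is printed above with the ATF4 core, held 5.03, 5.41 and 0 FPKM in injured FoxM1fl/fl libraries. FoxM1-cKO libraries held 6.08, 7.91 and 2.17 FPKM. These groups overlapped, with a log2 difference of 0.79 (SE 0.80). Asns was at 0 in all uninjured libraries.

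In all, 5 of the 10 members lay higher in every injured FoxM1-cKO library than in every injured FoxM1fl/fl library, 1 lay lower and 4 overlapped. Over the 4956 genes tested, 17.2% lay higher in this way and 5.87% lower (23.1% in either direction). Since this comparison chose the members, nothing is read from the difference. The counts were also 5 and 1 after median-ratio scaling. They were the same without the 3 weighted-sum libraries, but leaving libraries out can only keep or raise such counts. Without FoxM1-cKO injured 3, Phgdh and Asns did not overlap either, and without FoxM1-cKO injured 2 neither did Atf5.

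Ordered by mean FPKM in injured FoxM1-cKO SCs, Shmt2 (307 ± 233) was followed by Mthfd2 (171 ± 96.9), Psat1 (31.9 ± 13.7), Pck2 (26.5 ± 22.3), Psph (24.4 ± 30.04), Atf4 (19.3 ± 1.62) and Asns (5.39 ± 2.94). Phgdh (mean 8.59) and Atf5 (mean 7.45), each with a library at 0, came between Atf4 and Asns, and Gldc was last. The libraries of Shmt2 and Mthfd2 overlapped, as did those of Psat1, Pck2 and Psph and those of Pck2, Psph and Atf4. Within libraries, Shmt2 was above Mthfd2 in all 3, while the order of Psat1, Pck2 and Psph varied from library to library. In injured FoxM1fl/fl SCs the order was another. Shmt2 (58.9 ± 4.21) led by a wide margin, with Gldc next (19.97 ± 17.6), and Psat1, Mthfd2 and Atf4 were each under 3 FPKM in every library.

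Markers of other cell types were summed in the injured groups. The 10 macrophage markers in the table summed to 0.064% to 0.224% of FPKM in FoxM1fl/fl libraries, with 5 to 8 above 0, and to 0.002% to 0.09% in FoxM1-cKO libraries, with 4 to 6 above 0. These ranges overlap. The 23 myofibre markers summed to 0.046% to 0.166% and 0.205% to 0.333%, and the 10 markers of fibro-adipogenic progenitors to 0.085% and 0.253% to 0.494%, and neither of these pairs of ranges overlaps. Their part in the members' differences was not tested.

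The comparison of uninjured SCs did not choose the members. Its fit still shares the spread with the injured libraries, whose values did. Of the 9 members tested, 6 were at 0 in all 6 uninjured libraries, passed the filter only through injured ones and could not differ there. Shmt2, Atf4 and Pck2 had values above 0 in 2 uninjured libraries each, so they too passed the filter only with the injured ones. Of these, 0 passed limma on log2(FPKM + 1) in either direction (Benjamini-Hochberg adjusted p). Limma called 1.53% of all 4956 tested genes in that comparison. At an unadjusted p under 0.05 there were 2, Shmt2 and Atf4, and 937 of the 4956 genes. Shmt2 differed by 6.91 on the log2 scale (SE 2.17, limma adjusted p = 0.163) and Atf4 by 3.83 (SE 1.35, limma adjusted p = 0.169), each higher in 2 of 3 FoxM1-cKO libraries than in any FoxM1fl/fl library. Pck2 differed by -1.06 (SE 1.02, limma adjusted p = 0.821). For Shmt2 and Atf4, 1 library each decided the call. Without FoxM1-cKO uninjured 3 Shmt2 passed (limma adjusted p = 0.000522), and without FoxM1-cKO uninjured 1 Atf4 passed (limma adjusted p = 0.00346). Both fits kept FoxM1-cKO uninjured 2, which follows a weighted sum of the other 2 libraries of its group. The 2 FoxM1-cKO libraries that held each gene may thus not be separate samples.

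Depth limits what the zeros in uninjured SCs can show. In those 6 libraries a single read of Psat1 was worth between 0.595 and 2.24 FPKM, and a single read of Mthfd2 between 0.747 and 2.81 FPKM. The levels of both genes in injured FoxM1fl/fl SCs were no more than 1.19 and 1.59 FPKM. A level like that of the injured controls would thus give few reads or none in uninjured libraries. Single reads were worth 0.773 to 2.91 FPKM for Asns, 0.823 to 3.09 for Phgdh, 0.415 to 1.56 for Gldc and 0.903 to 3.4 for Atf4. A count of 0 allows up to 3 reads, which is 1.79 to 6.72 FPKM for Psat1. Absence from uninjured SCs was thus not detectable for levels of this size, while a level such as that of Psat1 or Mthfd2 in injured FoxM1-cKO SCs would have given several reads or more in each library. These limits cover counting error only.

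**Figure D2:**
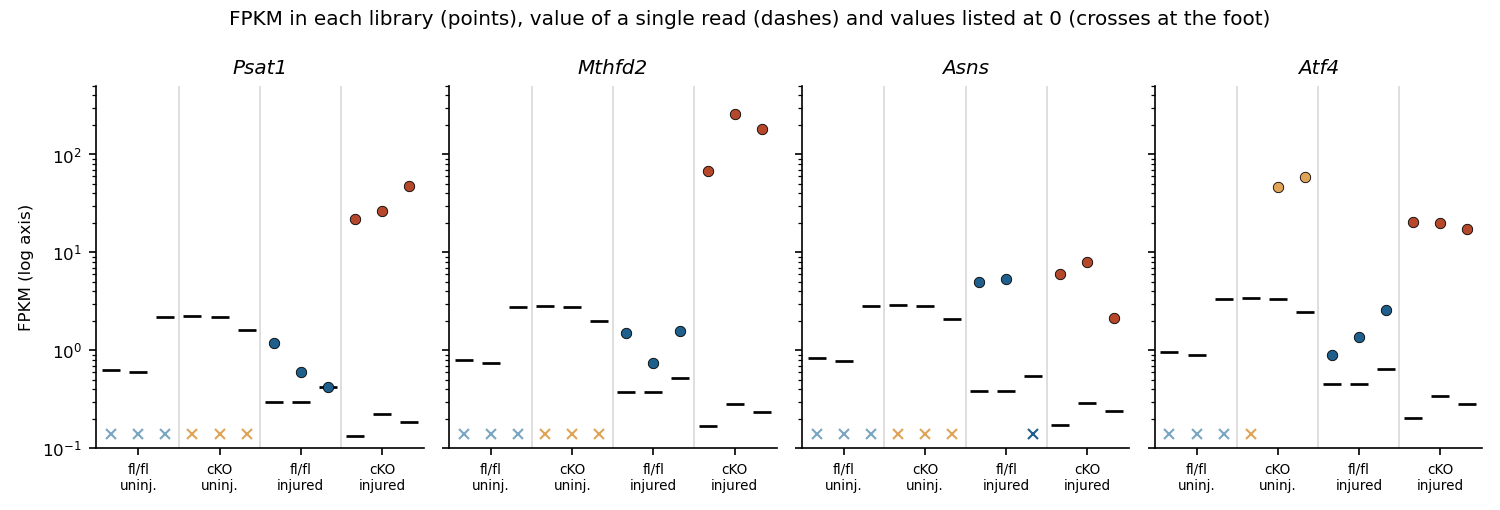
FPKM of Psat1, Mthfd2, Asns and Atf4 (y axis, log scale) in each of the 12 libraries by group (x axis); points are values above 0, crosses at the foot are values of 0, and dashes give the value of a single read in that library. The injured FoxM1fl/fl values of Psat1 and Mthfd2, at most 1.19 and 1.59 FPKM, lie at or below the single-read value of most uninjured libraries.

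With injury, 5 members lay higher in every injured than in every uninjured FoxM1fl/fl library (Psat1, Shmt2, Mthfd2, Gldc and Atf4) and none lower, where 33.2% of tested genes lay higher and 2.2% lower. In FoxM1-cKO SCs 5 lay higher (Psat1, Psph, Mthfd2, Pck2 and Asns) and none lower, where 44.8% of tested genes lay higher and 1.41% lower. These comparisons share the injured libraries with the one that chose the members, so they were not tested. Gldc, Shmt2 and Atf4 are in the first set and not the second, and Psph, Pck2 and Asns in the second and not the first. Whether the genotypes differ in this was not tested. The depth of the injured libraries exceeded that of every uninjured one, and the median log2 difference over all tested genes was 1.51 in FoxM1fl/fl and 1.68 in FoxM1-cKO SCs. After median-ratio scaling these medians were 1.11 and 1.299, and in the injured comparison of the genotypes the median moved from 0.32 to 0.12. The differences of Psat1 (0.77), Mthfd2 (1.17) and Atf4 (1.33) between injured and uninjured FoxM1fl/fl SCs were smaller than the median of all genes, and those of Shmt2 (5.90) and Gldc (3.63) were larger.

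Few genes of the wider pathways were called between the genotypes in injured mice. Of 144 genes in 8 lists around these pathways, 124 had a row and 75 were tested. In injured mice 0 rose and 2 fell by limma (3 higher and 9 lower at an unadjusted p under 0.05, as were 1145 of all 4956 tested genes in either direction), 2.67% against 7.81% of all tested genes, and the median log2 difference was -0.06 against 0.32. Both genes that fell, Atf3 and Lonp1, belong to the 17 tested of 26 listed ATF4 targets and stress response genes, of which the other 15 did not pass. Atf3, a stress-induced transcription factor, had 519, 592 and 283 FPKM in the injured control libraries against 0.353, 0 and 0 FPKM in the injured FoxM1-cKO libraries (log2 difference -8.65, SE 1.88, limma adjusted p = 0.0134). Lonp1, the protease of the mitochondrial matrix, had 17.4, 18.9 and 10.8 FPKM against 0.473, 2.99 and 0.818 FPKM (log2 difference -2.89, SE 0.73, limma adjusted p = 0.0266). Among the injured libraries, Atf3 and Lonp1 were thus lower in those in which Atf4 RNA was higher, and a relation was not tested. In uninjured SCs Atf3 held 374, 404 and 0 FPKM in FoxM1fl/fl libraries, where Atf4 was at 0. The uninjured FoxM1-cKO libraries held 2.95, 0 and 0 FPKM of Atf3. In the injured comparison without FoxM1fl/fl injured 1, the limma adjusted p was 0.0679 for Atf3 and 0.0849 for Lonp1. Lonp1 was also lost without FoxM1fl/fl uninjured 1 (0.0628), FoxM1fl/fl uninjured 2 (0.0538) or FoxM1-cKO uninjured 2 (0.0624). With no filter on low values both calls were lost (0.0629 and 0.107), and that of Lonp1 also with only the 2 groups in the fit (0.261) or a pseudocount of 0.1 (0.0531).

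The lists closest to the members held no called gene in that comparison. A limma call is another criterion than the non-overlap of libraries given for the members, which was not counted for the lists. Of the list genes named in the text, Sfxn1, Mat2b and Gars lay higher in every injured FoxM1-cKO library than in every injured FoxM1fl/fl library. Atf3, Lonp1, Eno1 and Pgam1 lay lower in this way. The serine and glycine list had 3 tested genes of 16 listed (median -0.27), folate one-carbon metabolism 7 of 20 (median 0.69) and amino acid transport 5 of 13 (median -0.96). The cytosolic tRNA synthetases, many of them known ATF4 targets, had 18 tested of 20 (median 0.18). The lists of eIF2 and its kinases (8 of 17, median -0.10) and of phosphoenolpyruvate and pyruvate enzymes (13 of 19, median -0.14) held none either. The list of ATF, CREB and C/EBP factors (9 of 20, median -0.42) held Atf3 alone. In uninjured mice the only called gene of the 75 was Eprs, the glutamyl-prolyl-tRNA synthetase, which is 1.33% against 1.53% of all tested genes. It rose from 7.09, 4.42 and 4.06 FPKM in FoxM1fl/fl to 288, 268 and 321 FPKM in FoxM1-cKO SCs (log2 difference 5.59, SE 1.04, limma adjusted p = 0.0193). Its call was lost after median-ratio scaling (0.0764), without FoxM1fl/fl uninjured 1 (0.0797), FoxM1-cKO uninjured 2 (0.084) or FoxM1fl/fl injured 1 (0.0574), with no filter (0.0539) and with only the 2 groups (0.0868).

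**Figure D3:**
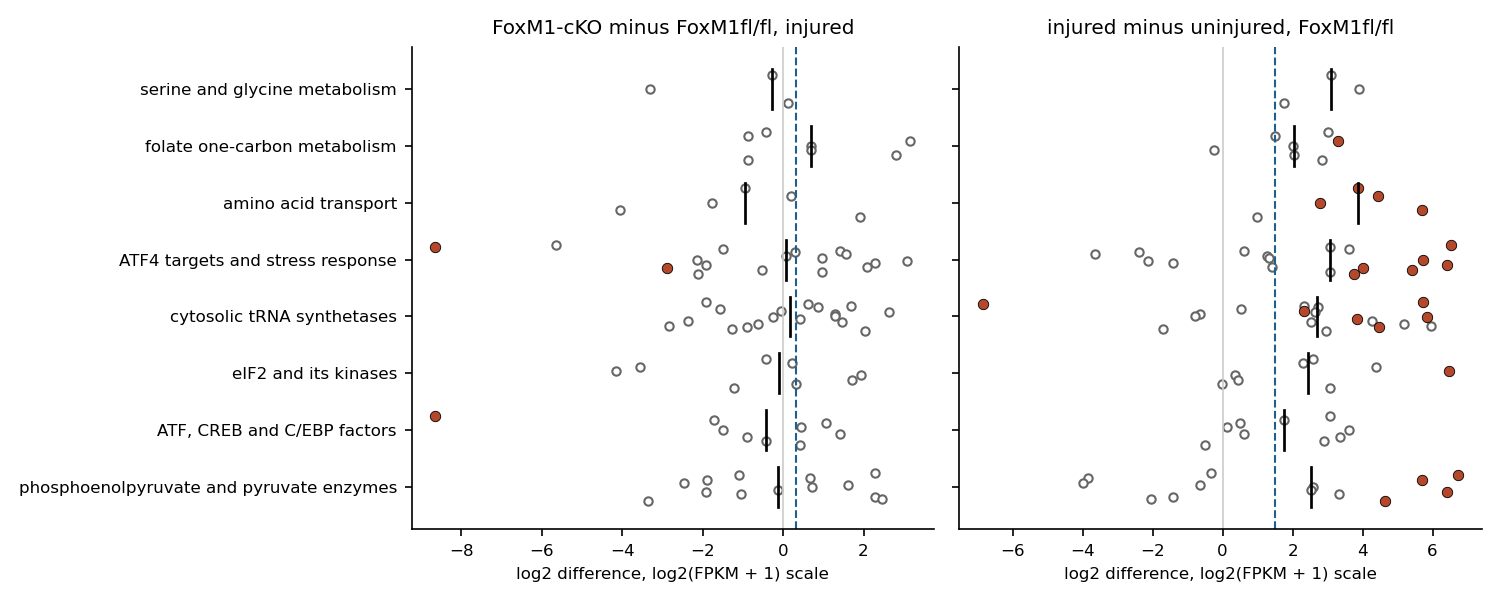
Log2 differences on the log2(FPKM + 1) scale (x axis) of the tested genes of 8 pathway lists (y axis) between genotypes in injured mice (left) and with injury in FoxM1fl/fl SCs (right). Filled points passed limma at an adjusted p under 0.05, open points did not, short bars are list medians, and the dashed line is the median of all 4956 tested genes; on the left the filled points are Atf3 (in 2 lists) and Lonp1.

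More genes of these lists were called with injury. In FoxM1fl/fl SCs 20 of the 75 rose and 1 fell, 28.0% against 20.8% of all tested genes. All that rose and are named next were at or under 5.56 FPKM in every uninjured FoxM1fl/fl library. The amino acid carriers Slc1a5, Slc3a2 and Slc7a1 rose (log2 differences 3.87, 4.45 and 2.79), as did the serine carrier of mitochondria Sfxn1 (3.29). Lonp1, the translation repressor gene Eif4ebp1 and the stress gene Ddit4 rose by 4.03, 5.73 and 6.53, the tRNA synthetases Kars, Aars and Tars by 5.85, 5.72 and 4.46, and Eif2b2, a subunit of the exchange factor for eIF2, by 6.46. The injured libraries were far apart for Eif2b2 (273, 1.94 and 850 FPKM), Ddit4 (478, 728 and 1.26 FPKM) and Tars (36.4, 1.52 and 111 FPKM). The first of them, FoxM1fl/fl injured 1, follows a weighted sum of the others. The glycolytic enzymes Eno1 and Pgam1 rose by 6.74 and 5.69, and the aspartate transaminase Got1 by 6.41. The gene that fell, Cars, a tRNA synthetase named here after its values were seen, went from 1160, 1307 and 0 FPKM to 0 in all 3 libraries (limma adjusted p = 0.0375). Its values above 0 are those of FoxM1fl/fl uninjured 1 and 2. The first held genes of the second at a median of 0.88 times their level, so they may not be separate samples. The leave-out fits described next do not cover Cars. Of the 14 genes named here, of the 20 that rose, 6 (Aars, Eif4ebp1, Eno1, Kars, Lonp1 and Pgam1) passed whichever library was left out. The other 8 were lost without FoxM1fl/fl injured 1 (limma adjusted p 0.0579 to 0.162) and without FoxM1fl/fl uninjured 1 (0.0519 to 0.124), and 7 of them without FoxM1fl/fl uninjured 2 (0.0503 to 0.099). Leaving out FoxM1fl/fl uninjured 3 ended 3 calls (0.0594 to 0.0833), FoxM1fl/fl injured 2 ended 2 (0.0671 and 0.0709) and FoxM1fl/fl injured 3 ended 1 (0.121). Leaving out a FoxM1-cKO library ended up to 3, of Eif2b2, Slc7a1 and Sfxn1 (0.051 to 0.0664, without uninjured 1, 2 or 3 or injured 2 or 3). Among these 14, quantile normalization ended 8 calls (0.0582 to 0.257), no filter 6 (0.0579 to 0.0976), a pseudocount of 5 ended 6 (0.0526 to 0.144), only the 2 groups 4 (0.0742 to 0.127) and median-ratio scaling 3 (0.0517 to 0.0917). Aars, Eno1, Kars, Lonp1 and Pgam1 passed under each of these settings.

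In FoxM1-cKO SCs 17 of the 75 rose with injury and 2 fell, 25.3% against 24.5% of all tested genes. Sfxn1 rose from 0, 0 and 4.27 to 43.0, 176 and 86.3 FPKM (log2 difference 5.66, limma adjusted p = 0.00279). Mat2b, a regulatory subunit of the enzyme that makes S-adenosylmethionine, rose by 5.44, and Slc3a2 by 4.86. The tRNA synthetases Gars, Yars and Lars rose by 7.17, 4.99 and 4.27, the autophagy receptor gene Sqstm1 by 7.41, Herpud1 of the endoplasmic reticulum by 2.30, Eif2s2, a subunit of eIF2, by 5.02, and Eno1 and Pgam1 by 5.64 and 3.80. The genes that fell, Pgam2 and Eno3 (the latter named after its values were seen), are the muscle forms of glycolytic enzymes and are also on the list of myofibre markers. Pgam2 went from 95161, 49830 and 10741 FPKM to 7.09, 0.703 and 6.35 FPKM. Of the 12 genes named by rule, 9 passed whichever library was left out. Eif2s2 and Lars were lost without FoxM1-cKO uninjured 2 (limma adjusted p = 0.0515 and 0.0532). Herpud1 was lost without any of 8 libraries, with limma adjusted p from 0.0512 to 0.103. These are FoxM1-cKO uninjured 1 to 3, FoxM1-cKO injured 1 and 3, FoxM1fl/fl uninjured 1 and 2, and FoxM1fl/fl injured 1. Among these 12, quantile normalization ended 9 calls (0.0656 to 0.248), a pseudocount of 5 ended 3 (0.0557 to 0.0658), only the 2 groups 2 (0.0522 and 0.125), and median-ratio scaling and no filter ended that of Herpud1 (0.055 and 0.138). Without the 3 weighted-sum libraries together, limma called 0 genes of the table in each of the 4 comparisons (158 to 1022 at an unadjusted p under 0.05).

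The genes most like Psat1, Pck2 and Gldc over the 12 libraries were found by Pearson correlation on the log2(FPKM + 1) scale. Genes with a predicted or clone name were passed over. These correlations are descriptions. The 12 libraries include 3 weighted sums, and the shared zeros of the uninjured libraries raise every value. Psat1 was most like Eif4e2 (r = 0.996), Mthfd2 (r = 0.9896) and Ypel5 (r = 0.987). Mthfd2 is itself a member, and the libraries that chose the set enter this correlation, so nothing is read from its rank. Eif4e2, a cap-binding protein, was at 0 in all uninjured libraries, at 1.35, 0.673 and 0.317 FPKM in the injured control libraries, and reached 10.4, 19.7 and 23.6 FPKM in the injured FoxM1-cKO libraries. Pck2 was most like Keap1 (r = 0.974), Fam114a2 (r = 0.959) and Tmem250-ps (r = 0.953). Keap1, the adaptor that holds the oxidative stress factor NRF2 in check, had 6.45, 6.90 and 0 FPKM in uninjured controls, 0 in uninjured FoxM1-cKO and injured control SCs, and 2.52, 99.4 and 32.6 FPKM in injured FoxM1-cKO SCs. Gldc was most like Gfm1 (r = 0.997), Tmem158 (r = 0.996) and Fgfrl1 (r = 0.993). Gfm1, a mitochondrial translation factor, had 16.5, 24.3 and 1.35 FPKM in injured controls and 0 elsewhere. The 3 genes most like Gldc were thus above 0 in the same 3 libraries and in the same order of level, and Gldc had 4 further reads in FoxM1-cKO injured 1.

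**Figure D4:**
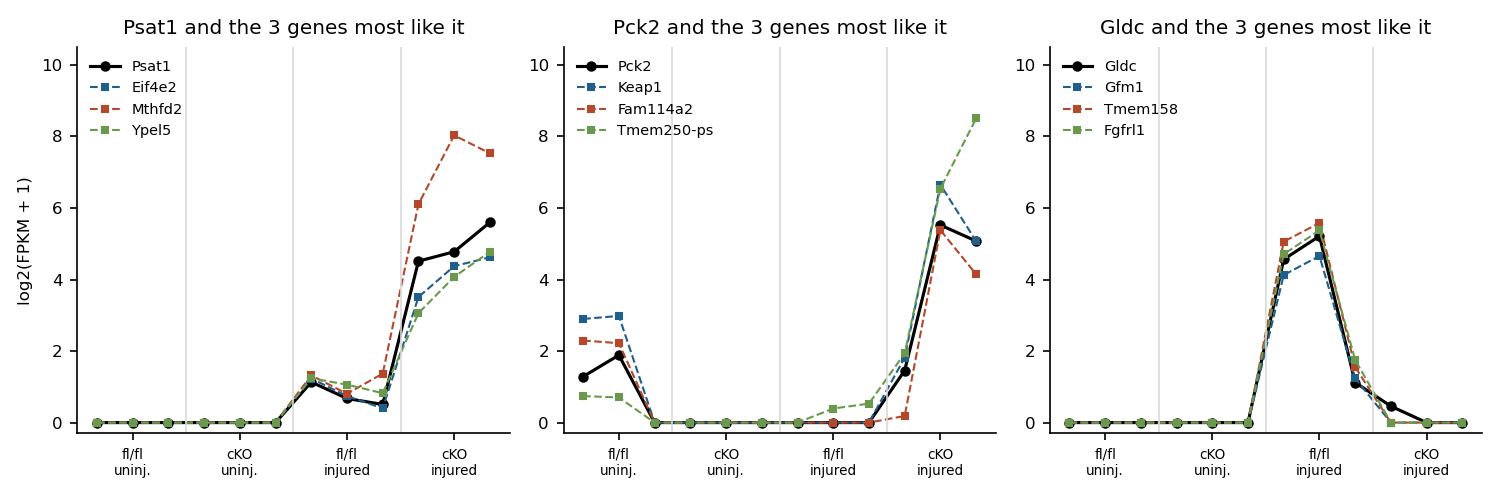
Psat1, Pck2 and Gldc (black) and the 3 genes most like each, on the log2(FPKM + 1) scale (y axis) over the 12 libraries in order of group (x axis). The curves follow each other through the libraries at 0 as well as those above it, with r from 0.953 to 0.997.

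Among the members themselves, r with Psat1 was 0.83 for Pck2, 0.71 for Psph and Asns, 0.56 for Phgdh, 0.47 for Atf4, 0.44 for Shmt2 and -0.11 for Gldc. Pck2 and Mthfd2 had r = 0.85. Gldc was highest with Asns (0.53) and Phgdh (0.45), which are at 0 in FoxM1fl/fl injured 3, the library where Gldc was lowest of its group.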

How the data were processed

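SCs were profiled in 12 libraries, 3 in each of 4 groups taken from the labels. Per the submitters' notes and the study's methods, the authors used Bowtie 0.12.9 (mm10) for alignment and HTSeq for counting, and Cufflinks 2.1.1 gave the FPKM. The values used are the deposited FPKM, which are not counts, so no count test was run, although a count test was used by the authors. Levels were put on the scale log2(FPKM + 1), which understates changes of low genes. Genes that reached 1 FPKM in 3 or more libraries (4956) were fitted with limma 3.58.1 in R 4.3.3 (4 group means, trended moderated variances), and p-values were adjusted over all of them by the Benjamini-Hochberg method, with calls at an adjusted p under 0.05.

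Depth was found from the size of FPKM steps, which was checked on simulated sparse libraries. The fit was checked on simulated data with a smaller spread than measured and no excess of zeros. That check does not cover libraries such as these. A value counted as whole reads within 0.02 reads plus 0.1% of their number, at a length within 1% of a GENCODE M21 transcript. Positions are from GENCODE M21 on mm10 and promoters from RefSeq GRCm38.p6. Library strandedness is not given in the sources used here.

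Members and lists were chosen with earlier results of these data known. The text names all members, up to 3 called genes of each list and comparison with the smallest p whose higher group averaged 5 FPKM or more, and the 3 genes most like Psat1, Pck2 and Gldc. Other settings tried were quantile normalization, median-ratio scaling (154 genes), no filter or one at 5 FPKM, a pseudocount of 0.1 or 5, the 2 compared groups fitted alone, a replicate block, each library left out, and the 3 weighted-sum libraries left out. Chosen after seeing the data were the counts of members that do not overlap under other settings. Other computing used pandas 2.3.3, numpy 2.4.6 and matplotlib 3.10.9 under Python 3.11.15.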

Additional observations from a re-analysis of the deposited data

How the results depend on the processing

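The counts of called genes depended strongly on the fit. In uninjured mice limma called 76 genes (43 higher, 33 lower in FoxM1-cKO SCs). The count was 158 and 29 with pseudocounts of 0.1 and 5, 24 with no filter, 111 (38 higher, 73 lower) after median-ratio scaling, 140 after quantile normalization, 51 with the replicate block, 0 with only the 2 groups (266 at an unadjusted p under 0.05), 0 without the 3 weighted-sum libraries (158 unadjusted), and 18 to 383 without 1 library (18 without FoxM1fl/fl uninjured 1, 383 without FoxM1fl/fl uninjured 3). Their direction depended on the library left out, as 82 genes were higher and 301 lower when FoxM1fl/fl uninjured 3 was left out, 40 higher and 149 lower for FoxM1fl/fl uninjured 2, 227 higher and 37 lower for FoxM1-cKO uninjured 1, and 212 higher and 37 lower for FoxM1-cKO uninjured 3. In injured mice it was 387 (255 higher, 132 lower), 93 with no filter, 221 with the stricter filter, 163 (74 higher, 89 lower) after quantile normalization, 2 with only the 2 groups, 0 without the weighted-sum libraries (461 unadjusted), and 103 to 725 without 1 library. The split was 48 higher and 55 lower without FoxM1fl/fl injured 1, 196 and 285 without FoxM1fl/fl injured 2, and 268 and 457 without FoxM1fl/fl injured 3, so without any 1 of these most called genes were lower. With injury in FoxM1fl/fl SCs it was 1029, and 527 with a pseudocount of 5, 431 with no filter, 438 after quantile normalization, 0 without the weighted-sum libraries (654 unadjusted), and 389 to 1480 without 1 library. With injury in FoxM1-cKO SCs it was 1215 (1158 higher, 57 lower), and 741 with a pseudocount of 5, 601 with no filter, 380 (297 higher, 83 lower) after quantile normalization, 687 with only the 2 groups, 0 without the weighted-sum libraries (1022 unadjusted), and 606 to 1362 without 1 library.

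With the replicate number as a block (replicate block), 51, 313, 959 and 1139 genes were called in these comparisons. Deviations of libraries with the same number correlated between -0.032 and 0.054, which shows no pairing by number. Libraries with many zeros, some of them weighted sums, cannot exclude a pairing. Of the pathway genes named, the block ended the calls of Lonp1 between genotypes in injured mice (limma adjusted p = 0.0548) and of Sfxn1 and Slc7a1 with injury (0.0563 and 0.0544).

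Shmt2 and Atf4 in uninjured SCs passed in 1 of 21 alternatives each (log2 differences 4.91 to 10.4 and 2.35 to 6.02). Both genes were at 0 in every uninjured FoxM1fl/fl library, so only quantile normalization could have reversed their direction. That they kept it in all 21 is thus no support. No described difference of a member whose groups did not overlap changed direction. Only median-ratio scaling and quantile normalization could have reversed one, since the other settings keep such groups apart. With 3 libraries a group, of which 1 follows a weighted sum of the others in 3 of the 4 groups, small differences are out of reach, and p-values measure only the spread between these libraries.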
